A study of Mus musculus with 3 samples.

Results

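The genes described here encode ribonuclease P and its relative ribonuclease MRP, RNA-protein enzymes that share most of their protein subunits. The set holds 9 genes chosen by symbol: the catalytic RNAs Rpph1 and Rmrp, and the proteins Pop1, Pop4, Pop5, Pop7, Rpp30, Rpp38 and Rpp40. They stand under 10 of the 55536 annotated gene identifiers, because Rmrp has 2. All 9 genes averaged 10 or more expected counts over the libraries and entered the comparisons of libraries, which used 15881 genes. The rule goes by symbol and not by measured values, but the set was chosen with earlier results of these data known.

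Ribonuclease P cuts the leader off the 5′ end of precursor transfer RNAs, and its RNA subunit carries the active site. Ribonuclease MRP cleaves precursor ribosomal RNA in the nucleolus, and its RNA, Rmrp, folds much like Rpph1. Both RNAs are made by RNA polymerase III, whereas the protein subunits come from ordinary messenger RNAs made by RNA polymerase II.

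The samples were bone marrow-derived macrophages of C57BL/6J mice, which are primary macrophages grown from marrow, treated with Lipid A, the part of bacterial endotoxin that Tlr4 senses, at 100 ng/ml for 15 min. Total RNA of the nucleoplasmic fraction was depleted of ribosomal RNA and sequenced in 3 libraries that the labels number as biological replicates 1, 2 and 3. Replicates 1 and 3 were made from 1 µg of RNA and replicate 2 from 500 ng. All 3 libraries form 1 group with no untreated sample, so no effect of Lipid A can be given. The labels name a single donor entry for all of them, so the spread between libraries may be technical.

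Expected counts over annotated genes came to 18516063 in replicate 1, 17345644 in replicate 2 and 20947006 in replicate 3. The mean fragment length implied by the gene table was 228, 222 and 187 nt. All 8 of 8 macrophage markers were measured, with a median of 217 TPM and a sum that ran from 2755 to 3760 TPM across libraries. Summed markers came to between 12.0 and 31.3 TPM for T cells, nearly all from Cd4, with Cd3e at 0, and to between 4.86 and 5.20 TPM for endothelial cells. The sums were at most 1.59 TPM for B cell, neutrophil, fibroblast, erythroid and dendritic lists.

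Because the reads of a short RNA are assigned by its sequence, the RNA models are shown first, with what each shares with another model. The sequences are those of GENCODE M21 on build GRCm38, read 5′ to 3′. Rpph1 (ENSMUSG00000092837.1) lies on the minus strand at chr14:50807449-50807767 and is 319 nt long, of which the first 300 are printed, at chr14:50807468-50807767. Capitals mark the 233 bases that are also the first exon of Ccnb1ip1-202, a model of the neighbouring protein-coding gene on the same strand. Rmrp has a 271 nt model annotated as a ribozyme (ENSMUSG00000088088.1, chr4:43492788-43493058, minus strand) and a 281 nt model annotated as a lincRNA (ENSMUSG00000115420.1, chr4:43492783-43493063, minus strand). The longer one is printed, with capitals for the only bases that the shorter one lacks, 5 at each end.
Rpph1-201: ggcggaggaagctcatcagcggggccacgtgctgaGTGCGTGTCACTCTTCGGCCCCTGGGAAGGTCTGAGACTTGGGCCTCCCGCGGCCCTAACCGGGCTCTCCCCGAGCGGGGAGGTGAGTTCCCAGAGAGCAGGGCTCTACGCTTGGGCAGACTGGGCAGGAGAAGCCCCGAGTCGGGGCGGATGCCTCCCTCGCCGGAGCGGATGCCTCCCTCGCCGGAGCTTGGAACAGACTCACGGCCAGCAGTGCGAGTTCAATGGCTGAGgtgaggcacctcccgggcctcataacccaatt
Rmrp-202: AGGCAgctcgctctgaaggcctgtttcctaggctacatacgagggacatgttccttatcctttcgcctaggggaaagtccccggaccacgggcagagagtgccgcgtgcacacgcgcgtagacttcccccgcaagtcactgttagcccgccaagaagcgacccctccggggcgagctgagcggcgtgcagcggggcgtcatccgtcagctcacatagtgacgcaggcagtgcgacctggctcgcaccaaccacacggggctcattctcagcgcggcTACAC

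A read that lies wholly within a shared stretch fits more than 1 model, and its assignment is then an estimate of the authors' counting. Of the 289 different 31-base words in Rpph1, 203 (70.2%) also occur in Ccnb1ip1 and 13 in Rprl3, one of the Rpph1-like genes. The gene table nevertheless gave Ccnb1ip1 0, 0 and 3.48 expected counts in replicates 1, 2 and 3, and all 4 identifiers of Rprl1, Rprl2 and Rprl3 stood at 0 there in each library. In the second transcript table, made from the same reads in another way, replicate 2 had 9 estimated counts for Rprl1, 21.3 for Rprl2 and 10.7 for Rprl3. The other libraries had none there, apart from 1 count for Rprl2 in replicate 1. Within Rmrp, 94 of 251 words (37.5%) match the first exon of Ccdc107-206 on the opposite strand. Ccdc107 had 104, 40.0 and 73.0 expected counts. The longest run that Rpph1 and Rmrp share is 9 bases, so the RNAs do not compete for reads with each other. GC content was 67.1% for Rpph1 and 63.7% for the longer Rmrp model, and Rpph1 holds a 21-base unit repeated in tandem at bases 184 to 225.

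Rpph1, the RNA of ribonuclease P, had 140096, 115154 and 299651 expected counts in replicates 1, 2 and 3. As CPM (counts scaled to the total of annotated genes), this was 7566, 6639 and 14305, with replicate 3 far above the other libraries, which lay close together. In TPM, which divides by effective length, the same RNA stood at 54980.2, 53420.5 and 68128, a mean of 58843 ± 8079 (SD, n = 3). The highest library exceeded the lowest by 2.15-fold in CPM and by 1.28-fold in TPM. The effective length that the gene table assigned to the 319 nt RNA was 101, 103 and 137 nt, longest in replicate 3, where its fragments were shortest. In the second table it was 151, 109 and 154 nt, with replicate 2 the shortest and replicate 1 close to replicate 3. In each library Rpph1 ranked 3 by gene-table TPM among all annotated genes.

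Rmrp, the RNA of ribonuclease MRP, had 149978, 70776 and 209293 expected counts for its 271 nt model, or 8099.9, 4080.3 and 9992 CPM. Replicate 2 was the lowest library here, whereas Rpph1 had similar CPM in replicates 1 and 2. The TPM of this model were 96076, 54506 and 70344, a mean of 73642 ± 20980.1 (SD, n = 3). It ranked 2 by gene-table TPM in every library. Its effective length was 61.6, 62.3 and 92.4 nt of 271 nt in the gene table, and 110, 74.8 and 113 nt in the second table.

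The 281 nt model of Rmrp stood apart in replicate 2. It had 48439, 5020.1 and 67575 expected counts, so that replicate 2 held far fewer than either other library. This model took 24.4%, 6.62% and 24.4% of all Rmrp counts in replicates 1, 2 and 3. In the second table it took 31.1%, 5.93% and 23.1%, again lowest in replicate 2. Replicate 2 is also the library made from less RNA, and with 1 such library the amount of RNA and the library cannot be told apart.

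**Figure D1:**
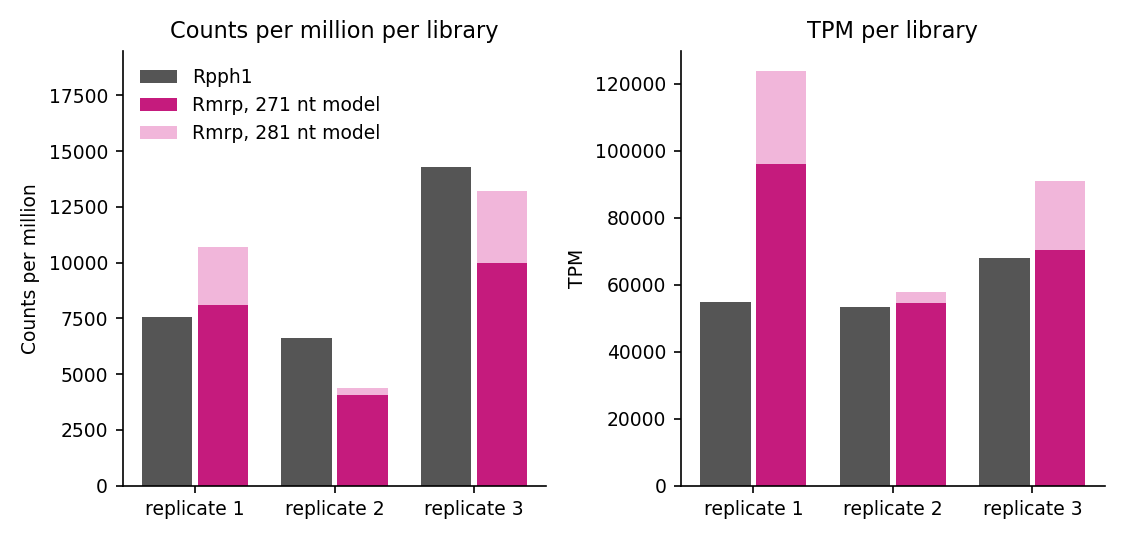
CPM (left) and TPM (right) of Rpph1 (grey bars) and of both Rmrp models, stacked (271 nt in dark pink, 281 nt in light pink), in each of the 3 libraries. The light part is thin in replicate 2, at 6.62% of Rmrp counts, and Rpph1 varies 2.15-fold in CPM but 1.28-fold in TPM.

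Both models together gave Rmrp 198417, 75796 and 276868 expected counts. With Rpph1, they took 1.83%, 1.10% and 2.75% of all counts of annotated genes, a mean of 1.89 ± 0.828% (SD, n = 3). They took a larger share of gene-table TPM, namely 17.9%, 11.1% and 15.9%, a mean of 15.0 ± 3.46%. In second-table TPM the levels were lower: Rpph1 averaged 15436 and the 271 nt Rmrp model 16850, against 58843 and 73642 in the gene table. Replicate 2 was the highest library for both in the second table, at 25471 and 25619 TPM, as it was there for every protein member. The 7 protein genes together took 0.00471%, 0.00362% and 0.00325% of counts.

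Whether Rpph1 or Rmrp was the more abundant RNA depended on the scale and on the identifiers counted. Per kilobase of annotated length, Rpph1 stood at 0.794, 1.38 and 1.22 times the 271 nt Rmrp model in replicates 1, 2 and 3. The mean log2 ratio was 0.14 ± 0.42 (SD, n = 3), above 0 in 2 of 3 libraries (exact two-sided sign-flip permutation p = 0.75, the smallest possible being 0.25). Against both Rmrp models summed, the ratio turned to 0.605, 1.29 and 0.927, and the mean log2 ratio to -0.15 ± 0.55. In TPM, Rpph1 was below the 271 nt model in 3 of 3 libraries, at 0.572, 0.980 and 0.968 times its level (mean log2 ratio -0.29 ± 0.44; exact p = 0.25). Against both models summed, it was lower in TPM in 3 of 3 libraries as well, with a mean log2 ratio of -0.57 ± 0.54 (exact p = 0.25), and in the second table the TPM ratio was -0.44 ± 0.43 (3 of 3 lower, exact p = 0.25). Without replicate 2, the per-kilobase mean log2 ratio was -0.026. Rmrp was thus above Rpph1 by slightly more than the SD in TPM with both models counted, and the difference was within its SD on the other scales given here.

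Per kilobase and in TPM, the RNAs stood about 4 orders of magnitude above their protein partners' messages in this nucleoplasmic RNA. In CPM per kilobase, the mean of Rpph1 and the 271 nt Rmrp model was 11209, 9080.3 and 23376 times the mean of the 7 protein genes, a mean log2 ratio of 13.70 ± 0.72 (SD, n = 3). In TPM the ratio was 20072, 16006 and 29843. Replicate 3 was highest on both scales. In CPM, which does not divide by length, the ratio was 1163, 1036 and 2620, and in second-table TPM 6112, 6936 and 15044. The ratio compares RNA species with each other, not RNA with protein. Messages outside the nucleoplasmic fraction were not measured.

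**Figure D2:**
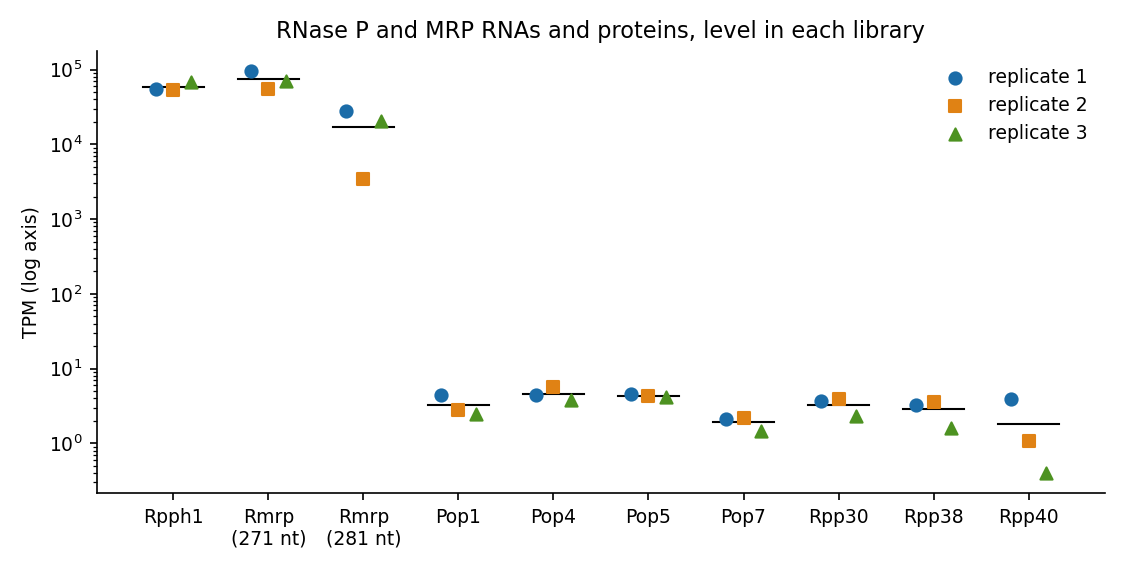
TPM on a log axis of each gene, with both Rmrp models, in replicates 1 (circles), 2 (squares) and 3 (triangles). Black lines are means of the 3 libraries. Rpph1 and the 271 nt Rmrp model lie at 53420.5 TPM or more, the protein genes between 0.40 and 5.70 TPM, and Rpp40 spreads most among the proteins.

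The 7 protein messages were low, and how close they lay to each other depended on the scale. Their mean TPM ran from 1.82 for Rpp40 to 4.63 for Pop4, a 2.54-fold range, with a median of 3.21, against a median of 6.87 over the 11963 protein-coding genes that passed the count minimum. In that distribution they lay between percentile 21.04 for Rpp40 and 39.3 for Pop4. The low end rests on replicate 1, without which Rpp40 averaged 0.745 TPM and Pop4 4.76 TPM. Mean CPM per kilobase ran from 0.678 for Rpp40 to 3.36 for Pop1, and mean second-table TPM from 0.786 for Pop7 to 4.94 for Pop1. Expected counts of the 7 genes were between 31 and 313 per library. Counting error alone gave exact 95% Poisson intervals of 11.2% to 37.0% to either side for these counts, against 0.358% to 2.78% for the RNA models. In fractionated bulk RNA, fewer cells of a type and less RNA per cell cannot be told apart.

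Pop1 (ENSMUSG00000022325.14, chr15:34495304-34530648, plus strand) encodes the largest protein, which wraps around the RNA in the yeast and human particles. It had 313, 180 and 231 expected counts and 4.38, 2.80 and 2.46 TPM. Replicate 1 was the highest, and the other libraries were close in TPM. Pop1 was the protein gene with the most counts, but its long message put it in the middle of the order by TPM, at 3.21 ± 1.02 (SD, n = 3).

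Pop4 (ENSMUSG00000030423.7, chr7:38261996-38271423, minus strand) encodes the subunit called Rpp29 in human, which contacts the RNA. Its 125, 108 and 134 expected counts gave 4.37, 5.70 and 3.82 TPM. It had the highest mean TPM among the proteins in the gene table, 4.63 ± 0.967, and lay within 1.08-fold between libraries in CPM. That place depended on the scale. In CPM per kilobase of annotated exons Pop4 averaged 2.27 ± 0.0939 and Pop1 3.36 ± 0.947, and in second-table TPM Pop4 averaged 1.96 and Pop1 4.94.

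Pop5 (ENSMUSG00000060152.14, chr5:115235836-115245351, plus strand) encodes a small subunit that pairs with Rpp30 in the human enzyme. It had 82, 70 and 100 expected counts and 4.57, 4.32 and 4.15 TPM, a mean of 4.35 ± 0.211. This was the narrowest TPM range of the set, at 1.10-fold. Pop5 and Pop4 could not be ordered: Pop4 was above Pop5 in 1 of 3 libraries.

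Rpp30 (ENSMUSG00000024800.8, chr19:36083716-36104777, plus strand), the partner of Pop5, had 121, 101 and 91 expected counts and 3.67, 3.90 and 2.34 TPM. Replicate 3 was the lowest. Pop5 was above Rpp30 in 3 of 3 libraries, by 0.42 ± 0.34 on the log2(TPM + 0.1) scale (exact sign-flip p = 0.25, 0.50 after adjustment over 8 pairs).

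Pop7 (ENSMUSG00000029715.5, chr5:137501438-137502518, minus strand) encodes the subunit called Rpp20 in human, which pairs with Rpp25. It had 37, 31 and 37 expected counts, the fewest of the set on average, and 2.09, 2.17 and 1.47 TPM. Its gene lies wholly inside a model of Epo on the same strand, which had 0 counts in each library.

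Rpp38 (ENSMUSG00000049950.6, chr2:3328949-3332643, minus strand) encodes a protein that binds a bend in the RNA called a kink-turn. It had 68, 62 and 44 expected counts and 3.29, 3.62 and 1.60 TPM, with replicate 3 below both other libraries. Rpp38 was above Pop7 in 3 of 3 libraries by 0.49 ± 0.32 on the same log2 scale (exact sign-flip p = 0.25, 0.50 adjusted).

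Rpp40 (ENSMUSG00000021418.15, chr13:35893472-35906359, minus strand), a subunit found beside Pop5 in the human enzyme, varied most among the proteins. It had 127, 76 and 43 expected counts and 3.97, 1.09 and 0.40 TPM, highest in replicate 1 and lowest in replicate 3. The highest library exceeded the lowest by 9.92-fold in TPM and by 3.34-fold in CPM. The mean length that the gene table used for the gene was 1477, 3577 and 3541 nt. The short transcript Rpp40-203, of 276 nt, had 4.22, 0 and 0 expected counts, and those few counts gave 2.55 of the 3.97 TPM in replicate 1. The deposited TPM intervals, 1.84 to 7.47, 0.938 to 3.33 and 0.352 to 1.71 in replicates 1, 2 and 3, overlapped between replicates 1 and 2 and between replicates 2 and 3. In second-table TPM replicate 2 was the highest, at 1.07, 1.31 and 0.116, as it was for the other protein members.

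Over the 8 pairs of neighbours in the order by mean TPM (Rmrp, Rpph1, Pop4, Pop5, Rpp30, Pop1, Rpp38, Pop7, Rpp40), 4 kept 1 direction in all libraries. With 3 libraries no pair can reach a sign-flip p below 0.25. Among the 21 possible pairs of protein genes, 14 had the same order in all libraries. The largest step was between Rpph1 and Pop4, at 13.61 ± 0.46 on the log2 scale.

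To ask which genes set one library apart, log2 CPM with edgeR's TMM scaling were compared between libraries, and a gene was called where it was at least 2-fold above or below both others. One member, Rpph1, was called: it was at least 2-fold higher in replicate 3, where 1.55% of all genes were. No member was called lower in replicate 3 (1.39% of all genes), higher or lower in replicate 1 (4.85% and 3.22%), or higher or lower in replicate 2 (0.856% and 2.22%). Over all libraries and directions, 1 of 9 members was called against 13.2% of genes, a share near the background. The 281 nt model of Rmrp, not the identifier used for the count, was lower in replicate 2.

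The call of Rpph1 depended on scaling. With total counts in place of TMM factors, Rpph1 fell short of 2-fold and Rpp40, lower in replicate 3, was called instead. At 1.5-fold, Rpph1, Rmrp and Rpp40 were called, 3 of 9 members against 34.9% of all genes. By the gene table, fragment length moved with the high library: it was 187 nt in replicate 3 against 228 and 222 nt in the others. The second table's effective lengths set replicate 2 apart instead. There the 3395 nt transcript Pop1-201 had 3212, 3166 and 3220 nt in replicates 1, 2 and 3. The part of fragment length in the result was not tested.

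**Figure D3:**
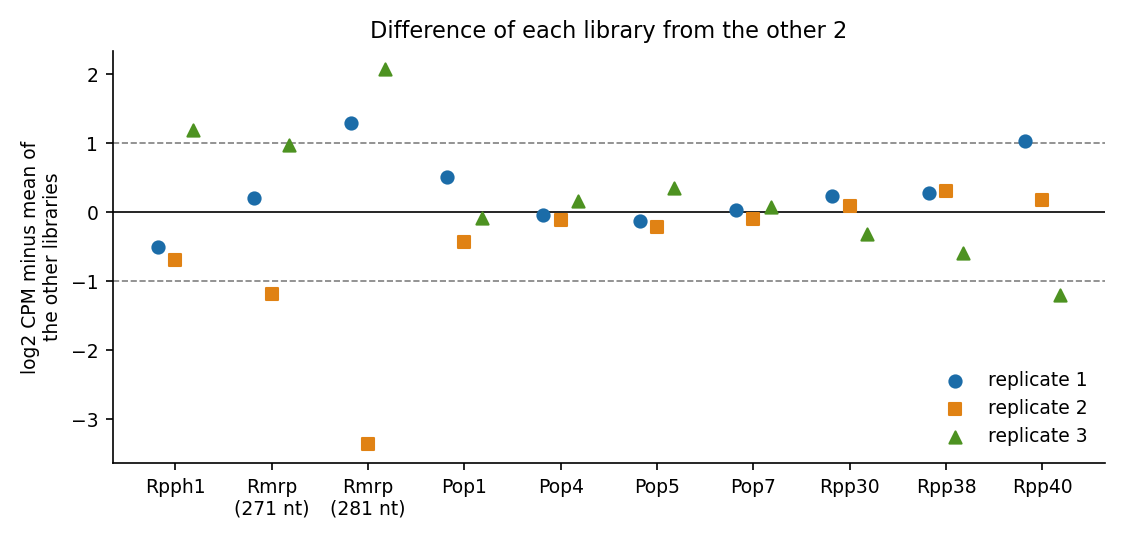
Log2 CPM (TMM) of each gene in each library minus the mean of the other libraries, with dashed lines at 2-fold. A call needs 2-fold from both other libraries, not from their mean, so Rpph1 in replicate 3 and the 281 nt Rmrp model in replicate 2 were called and Rpp40 was not.

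The spread over libraries divided the members. The SD of log2 CPM was 0.69 for Rpph1, 0.73 for Rmrp and 0.75 for Rpp40, at percentiles 86.4, 88.0 and 88.9 of all genes tested, whose median SD was 0.32. Rpp38 and Pop1 were near that median, at 0.34 and 0.32. Pop7 and Pop4 had low SDs on this scale, at 0.06 and 0.09, percentiles 3.07 and 7.03. In TPM their highest library exceeded the lowest by 1.48-fold and 1.49-fold, against 1.10-fold for Pop5. The exact 95% Poisson intervals of the Pop7 counts, 31 to 37, overlapped between all libraries, as did those of the Pop4 counts, 108 to 134. At such counts a low SD does not show that a gene is steady.

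Most of the protein genes have annotated transcripts that keep an intron or are marked for nonsense-mediated decay. The shares of these transcripts are estimates of the authors' counting. Nuclear RNA may hold unspliced as well as intron-retaining RNA, and which of them gave the counts was not tested. Summed over the 7 genes, protein-coding transcripts took 66.8 ± 2.84% of expected counts, retained-intron transcripts 20.8 ± 2.93% and transcripts annotated for nonsense-mediated decay 11.0 ± 2.99% (SD, n = 3). The 5 protein genes with an annotated retained-intron transcript had 24.0 ± 3.82% there, against 22.6 ± 1.38% over the 7095 protein-coding genes tested that have one. This difference was smaller than the spread between libraries of the 5 genes. In the second table the 5 genes had 40.6 ± 5.20% of estimated counts there, against 25.5 ± 1.92% over the 7095, a difference larger than that spread. In first-table TPM they had 30.6 ± 3.93%, against 34.1 ± 1.18%, so the direction depended on the table and unit.

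Rpp30 had 74.3%, 64.9% and 54.9% of its expected counts in retained-intron transcripts, and pooled over libraries it stood at percentile 92.1 of those 7095 genes. Rpp40 had 47.8%, 65.7% and 69.4%, percentile 88.1. The libraries ran in opposite directions for these genes, Rpp30 being highest in replicate 1 and Rpp40 lowest there. Pop4 was intermediate, at 17.8%, 31.2% and 21.8%. Pop1 had at most 1.55% of expected counts in a library, but 14.1%, 11.0% and 10.8% of second-table counts and up to 8.68% of first-table TPM, and Rpp38 and Pop7 have only protein-coding transcripts.

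Pop5 had a different make-up. Its nonsense-mediated decay transcript Pop5-203 took 82.2%, 79.8% and 78.1% of its counts, and its protein-coding transcript Pop5-201 took 2.22%, 7.51% and 0%. Pop5-203 is 1587 nt long and Pop5-201 1025 nt. The gene overlaps Rnf10, a far more abundant gene on the opposite strand, by 3940 bases, and Rnf10 had 1205, 1138 and 1646 expected counts. Whether counting used strand is not given in the sources used here. Of the 2378 different 31-base words in the Pop5 transcripts, 0 occur in annotated transcripts of another gene on either strand. That search did not cover unspliced RNA of Rnf10, so it cannot tell whether such RNA added to the Pop5 counts.

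**Figure D4:**
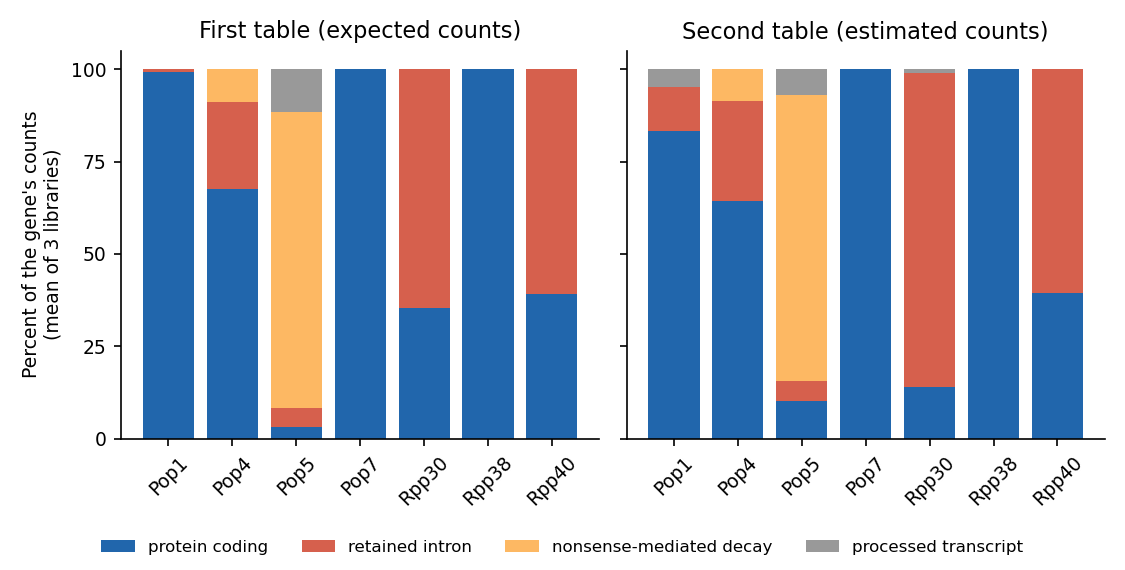
Share of each protein gene's counts by annotated transcript type, as the mean of 3 libraries, in the first table (left) and the second (right). Retained-intron transcripts lead Rpp30 and Rpp40 in both, and a nonsense-mediated decay transcript leads Pop5.

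The second table gave the members different levels. After scaling to CPM, Rpph1 was at 0.763, 0.733 and 0.720 times its first-table value and the 271 nt Rmrp model at 0.690, 0.825 and 0.728 times, percentiles 1.86 and 1.97 of all genes tested by mean ratio. The median gene was at 1.01 times. Rpp38, Pop4 and Pop7 were lower as well, at mean ratios of 0.812, 0.872 and 0.875.

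Pop1, Rpp40 and Rpp30 were higher in the second table in every library, at mean ratios of 1.23, 1.66 and 2.27. Pop5 was at 1.36, 1.13 and 0.930 times, a mean log2 ratio of 0.17 ± 0.28 that lay within its SD and was 0.034 without replicate 1. For Rpp30 the ratio was 2.45, 2.64 and 1.80, and most of the gain was in the retained-intron transcript Rpp30-205. It had 301, 323 and 146 estimated counts in the second table, against 46, 35 and 21 expected counts in the first. Of the 31-base words in Rpp30-205, 15.2% occur in transcripts of other genes, while none do in the other 4 Rpp30 transcripts. For Rpp40-204, the retained-intron transcript of Rpp40, this share was 5.37%, and for the protein-coding Rpp40-201 it was 2.80%. Mean counts in the first and second tables were 46.8 and 120 for Rpp40-204, and 33.3 and 81.9 for Rpp40-201. Pop1, also higher in the second table, shares no such words. Whether shared words had a part in the gains was not tested.

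**Figure D5:**
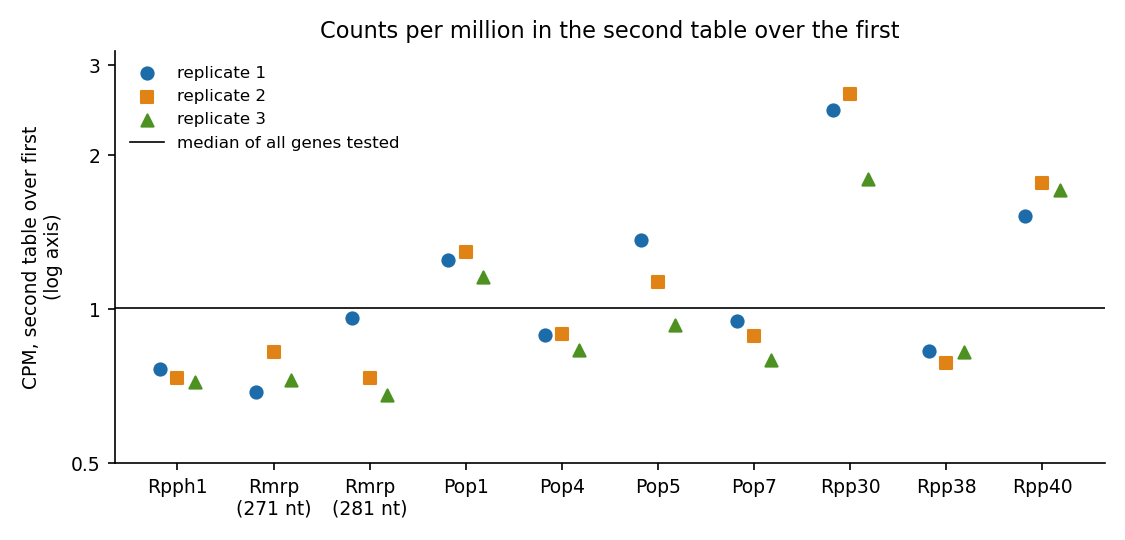
CPM in the second table over the first on a log axis, for each gene and library, with the median of all genes tested as a line at 1.01. Rpph1 and both Rmrp models lie below the line in every library, and Rpp30 and Rpp40 above it.

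Genes with other parts in the same pathway were described from lists of known function. Of the other proteins of the enzymes, Rpp14 had 98, 37 and 93 expected counts and was called lower in replicate 2 (2.22% of all genes), Rpp21 was the highest at 9.21 TPM, and Rpp25 had 3, 0 and 0 counts. Its paralogue Rpp25l, which is related to it by sequence, had 26, 11 and 26, so the partner of Pop7 in human was nearly undetected here while the paralogue was measured. The mitochondrial ribonuclease P, which is made of protein alone, had 3 of 3 genes measured, from Hsd17b10 at 2.66 TPM to 1110008L16Rik, the nuclease subunit also named Prorp, at 3.89 TPM. None of these 3 was called.

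The lists of genes for making the 2 RNAs or finishing transfer RNAs had higher median levels than the 7 protein members, whose median was 3.21 TPM. This difference was not tested. All 13 genes listed as core subunits of RNA polymerase III, not every subunit, were measured, with a median of 7.10 TPM, from Polr3g at 1.62 to Polr3gl at 15.2. All 11 genes listed for the promoter type that Rpph1 and Rmrp use were measured, with a median of 5.92 TPM, from Snapc2 at 1.84 to Snapc3 at 27.7. That list also holds the regulator Maf1. The 10 genes for transfer RNA 3′ ends and splicing had a median of 5.87 TPM, and Ssb was the highest at 30.4 TPM. No gene of these 3 lists was called in any library and direction, against 13.2% of all genes. Of 8 nucleolar partners in ribosomal RNA maturation, 3 (Nop56, Nop58 and Nolc1) were called higher in replicate 1, where 4.85% of all genes were.

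Among other non-coding RNAs of RNA-protein machines, Rn7sk had 32371, 29078 and 57757 CPM and was called higher in replicate 3 (1.55% of all genes), like Rpph1. The near-identical signal recognition particle RNAs Rn7s1 and Rn7s2, which share reads, had 5408, 2436 and 9321 and 5408, 2436 and 9756 CPM, and both were called lower in replicate 2 (2.22% of all genes). Rn7s2 and the telomerase RNA Terc, with 41, 20 and 92 expected counts, were called higher in replicate 3. Like the call of Rpph1, these replicate 3 calls depended on scaling: in CPM, which uses total counts, Rn7sk, Rn7s2 and Terc each lay less than 2-fold above replicate 1. Tert, the telomerase protein that is known to bind Rmrp in human cells, had 5, 0 and 1 expected counts, against 46.2, 29.6 and 27.6 estimated counts in the second table. Rny1, Rny3 and Rnu6, which are shorter, had 0 expected counts in each library. In the second table Rny1 had 4, 2 and 7 estimated counts, Rny3 14, 10 and 34, and Rnu6 fewer than 1.

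The genes with the pattern over 3 libraries most like that of Rpph1, by Euclidean distance of centred log2 CPM among 3179 others averaging 1000 or more counts, were Gm40578, Rn7sk and Apoe, at distances of 0.040, 0.086 and 0.12. For Rmrp they were Ccl4, Cited2 and Ier5, at 0.025, 0.14 and 0.16. Rpph1 and Rmrp were 0.59 from each other. The distance of Rpph1 from the protein members ran from 0.69 for Pop5 to 1.98 for Rpp40. With 3 libraries many genes share a pattern, so this only names the nearest.

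Of the neighbours in the genome, Parp2 starts 74 bases from the start of Rpph1 on the opposite strand and had 641, 696 and 763 expected counts. Rida starts 49 bases from Pop1, also on the opposite strand, and had 29, 31 and 38. Neither neighbour was called in any library. Gm44767, which overlaps Pop4 by 12 bases on the opposite strand, had 0 counts in each library, and Gm48746, which overlaps Rpp40 by 903 bases on the opposite strand, had 3, 1 and 0.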

How the data were processed

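Per the labels, nucleoplasmic RNA was depleted of ribosomal RNA and sequenced with a size range of 250 to 400. The authors deposited a gene table with expected counts and TPM, and 2 transcript tables: one with expected counts and TPM, and a second, derived from the reads directly per the file headers and notes, with estimated counts and TPM. Build mm10 and annotation GENCODE M21 come from the deposited notes, which the sources used here give without program or version. The deposited score columns give lengths, effective lengths, the posterior SD of counts and interval bounds of TPM.

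Symbols came from the second table, with no conflict with the annotation. Rows naming no annotated gene held 1.24%, 0.372% and 0.0641% of expected counts in replicates 1, 2 and 3 and were left out. Expected counts were rounded for edgeR 4.0.16 (TMM, log2 CPM with a prior count of 2), and genes averaging fewer than 10 counts were dropped. TPM differences used log2(TPM + 0.1). DESeq2 1.42.0 gave alternative size factors. R 4.3.3 and Python 3.11.15 were used. The rule for calling genes was run on simulated data with less spread between libraries than these data and with changes larger than 2-fold. That run therefore does not show how often the rule errs here. With 1 group, libraries were described without a contrast, and a single value was tested by exact sign flips. A symbol with several identifiers was taken at the one with the highest mean count. All members are named. Related genes are named where highest or lowest of their list, beside a member, or called at least 2-fold apart, and 3 genes most like each RNA are named. Rpp25l, the middle of a list, and genes at 0 were named after their values were seen. One gene that this rule names is not reported here. Members and lists were chosen with earlier results of these data known. Intervals cover counting error only.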

Additional observations from a re-analysis of the deposited data

How the results depend on the processing

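No paired analysis was possible because the libraries form 1 group. The ratio of Rpph1 to the 271 nt Rmrp model per kilobase (mean log2 0.14) turned to -0.29 in TPM and to -0.15 against both Rmrp models, and leaving out 1 library gave -0.026 to 0.37. It was 0.37 in CPM and 0.13 in the second table per kilobase, where it was -0.12 in TPM and, against both models, -0.20 per kilobase and -0.44 in TPM. The log2 ratio of RNAs to proteins was 13.70 per kilobase and 10.52 in CPM, which does not divide by length, and 13.30 to 13.98 without 1 library. One member stood 2-fold apart under every scaling and count minimum tried (Rpp40 with total counts, otherwise Rpph1), and 3 did at 1.5-fold. Of all genes, 13.2% stood 2-fold apart with TMM factors, 14% with total counts and 12.1% in the second table. The share was 7.45% with no count minimum and 9.01% at a minimum of 50, where 8 members were tested. At 1.5-fold it was 34.9%. Of 8 neighbouring pairs, 4 kept 1 direction, and 4 to 7 without 1 library. The order Pop5 over Rpp30 turned to -0.72 on the log2 scale in the second table, and Rmrp over Rpph1 to -0.14 per kilobase. Rpp30 over Pop1, 0.05 in TPM, was -1.26 ± 0.29 per kilobase and -0.42 in the second table. Above the median spread of all genes lay 4 members, and 9 with no count minimum, where genes without counts enter the median. In unscaled counts all 9 members, not 4, were higher on average in the second table, which holds more counts. The median over all genes tested was 0.61 on the log2 scale. Below that median, Rpph1 was at 0.16 ± 0.17, Rmrp 0.18 ± 0.31, Pop4 0.40, Pop7 0.41 and Rpp38 0.30. In replicate 1 the 271 nt Rmrp model was lower in the second table, at 0.944 times its first-table count. The retained-intron share of the 7 protein genes was 20.8% of expected counts, 24.1% of TPM and 37.2% in the second table. Levels of the protein genes rest on 31 to 313 counts.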

Other observations

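The deposited TPM of an RNA model lay above the upper bound of its own deposited interval in 8 of 9 values of the 3 RNA identifiers, and in 0 of 21 values of the protein genes. For Rpph1 in replicate 1, for example, the TPM was 54980.2 and the bounds were 52185 and 52776. In the second table Rpph1 had 13291, 25471 and 7546 TPM in replicates 1, 2 and 3, highest in replicate 2, while in the first table replicate 3 was highest. Estimated counts for Ccnb1ip1, whose model shares 233 bases with Rpph1, were 17.3, 9.57 and 151 in the second table.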
